A study of Mus musculus with 10 samples.

Results

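Luminal epithelial cells of prostates that had regressed after castration and regenerated under testosterone were compared with luminal cells of prostates that had never regressed. The comparison uses 7 of the 10 arrays of the series, the 4 regenerated arrays (labelled Cast/Test_PC) and the 3 intact arrays (labelled Intact). It covers 30142 genes, each read from its brightest single-gene row. All mice were males carrying Hoxb13-rtTA and TetO-H2BGFP, so that a histone-bound green fluorescent protein appears in Hoxb13-expressing cells under doxycycline. Every mouse drank 2 mg/ml doxycycline for 1 week before collection. Regenerated mice were castrated at 12 weeks of age, regressed for 6 weeks and then carried a subcutaneous silastic testosterone implant for 4 weeks, described in the labels as giving physiological serum levels. Intact mice were untreated, and the sources used here do not give their age at collection. The third group, 3 castrated arrays (Cast_PC) from mice after regression without testosterone, is given here as levels. It enters the tests through the shared estimate of spread and counts in the choice of each gene's row. Cells were sorted as GFP-positive, CD24-positive and CD49f-intermediate, without CD45, CD11b or the macrophage surface antigen encoded by Adgre1. The reporter limits the model to cells with an active Hoxb13 promoter. Castration with regression, the surgery and the implant come together in the regenerated group and cannot be told apart. The titles number biological replicates without naming animals or pools, so the spread between arrays may be partly technical.

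The prostate depends on androgen. When testosterone is withdrawn most luminal secretory cells are lost or shrink, and when it is returned the surviving cells rebuild the gland and resume secretion. Luminal cells near the urethra, often called proximal, express stem-cell-associated and urothelium-like genes and keep them at high levels in the regressed gland. Pbsn, Msmb and Tgm4 encode well known androgen-dependent secretory products of the mouse gland.

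Values are log2 RMA signals, in which 1 unit is a doubling, and a row cannot rise much above the table's highest value of 19.93. Array medians ran from 4.12 to 4.22, and the background control rows reached 6.40 at most. On the first principal component of the 7 arrays, which held 50.6% of the variance, the intact arrays lay at 38.7, 34.8 and 31.8. The regenerated arrays lay at 9.1, -28.9, 0.8 and -86.3, so regenerated replicate 4 stood apart from all others. On the second component, with 21.3% of the variance, intact replicates 1 and 2 lay at -35.1 and -31.8, while intact replicate 3 lay at 18, among the values of regenerated replicates 1 to 3 (16.9 to 31.9). Among the 10004 genes above background, regenerated replicate 4 was the regenerated array farthest from the intact mean in 53% and intact replicate 3 was the intact array nearest the regenerated mean in 46.7%. The median SD between arrays was 0.219 in intact and 0.348 in regenerated, and 0.228 in regenerated without replicate 4. Every gene was also fitted without regenerated replicate 4 and intact replicate 3. The value from that fit is given for each called gene and for the other genes described whose call it changes. This pair was set with the comparison, which was chosen with earlier results of these data known. Where intact replicate 3 is the intact array nearest the regenerated mean, leaving that array out tends to widen the difference. Calls gained without the pair therefore add no independent support.

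**Figure D1:**
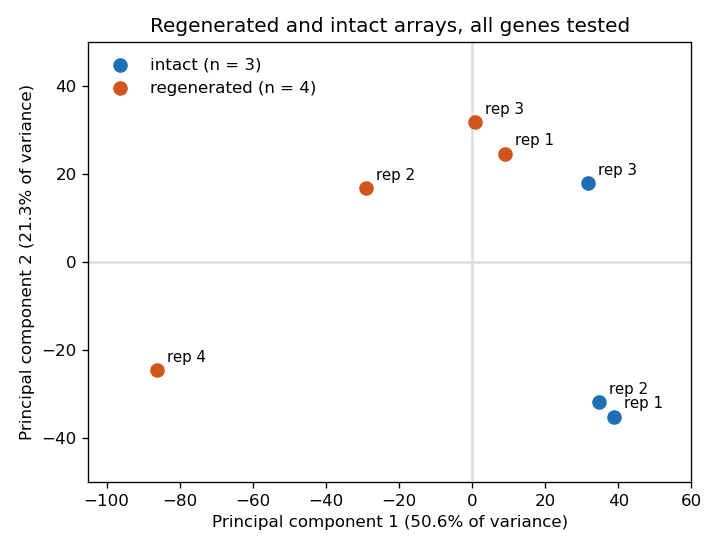
First and second principal components of the 3 intact (blue) and 4 regenerated (orange) arrays over the genes tested, each point an array. Regenerated replicate 4 lies far left at -86.3, and intact replicate 3 lies at 18 on the vertical axis, with regenerated replicates 1 to 3.

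Luminal transcripts were high in both groups. The luminal keratins were near the top of the scale, with Krt18 at 17.09 ± 0.21 (SD, n = 3) in intact and 16.81 ± 0.17 (n = 4) in regenerated arrays, and Krt8 at 15.83 ± 0.63 and 15.15 ± 0.36. Epcam, an epithelial adhesion molecule, was 14.01 ± 0.10 and 14.07 ± 0.20, and the sort marker Cd24a was 14.31 ± 0.26 and 15.33 ± 0.47. Hoxb13, whose promoter drives the reporter, was 10.54, 10.19 and 10.43 on the intact arrays and 10.27, 9.61, 9.76 and 8.26 on the regenerated arrays. The lowest Hoxb13 value was again that of regenerated replicate 4, and the difference was -0.91 ± 0.39 (SE, limma with Benjamini-Hochberg adjusted p = 0.475). The excluded leukocyte markers were low in both groups, with Ptprc, which encodes CD45, at 3.64 ± 0.10 and 3.60 ± 0.03, Adgre1 at 3.76 ± 0.14 and 3.77 ± 0.04, and Itgam, which encodes CD11b, at 3.91 ± 0.07 and 4.01 ± 0.05.

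After 4 weeks of testosterone 11 genes differed between regenerated and intact cells, 0.0365% of those tested. By limma and Benjamini-Hochberg adjustment 10 were higher (0.0332%) and 1 was lower (0.00332%) in regenerated cells. Rnase1, a secreted ribonuclease, had the largest of these differences, followed by the long non-coding Gm5547, the pseudogenes Gm11223 and Gm7665, Wfdc6b, Ccdc80, Colca2, Cst3, H2bc12 and Bank1. The gene lower in regenerated cells was Spink14, which encodes a Kazal-type protease inhibitor. The adjusted p was 0.0172 for Rnase1 and 0.0473 to 0.0477 for the other 10, close to the threshold of 0.05. No gene passed when intact replicate 1, intact replicate 2, castrated replicate 1, castrated replicate 2, regenerated replicate 2 or regenerated replicate 3 was left out, with 1803 to 2963 genes at an unadjusted limma p under 0.05. None passed either when the 7 compared arrays were fitted without the castrated ones, with 2859 genes at an unadjusted limma p under 0.05, so the 11 calls depend on the spread shared with the castrated arrays. Leaving out castrated replicate 3 gave 6 genes, intact replicate 3 gave 22, regenerated replicate 4 gave 25 and regenerated replicate 1 gave 78. Array weights gave 70 genes, and a filter that kept only the 10004 genes with a group mean above the highest background value gave 22. A gene could enter this filter through its regenerated mean alone. Ccdc80 did so, with means of 6.09 in intact, 6.32 in castrated and 8.31 in regenerated cells. For such genes the filter adds no support. With each array centred on its median the split was 2 higher to 1 lower, and after repeated quantile normalisation 1 to 0.

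Rnase1 (transcript cluster TC1400002000.mm.1) encodes the pancreatic-type ribonuclease found in body fluids. It read 7.31, 7.98 and 7.48 on the intact arrays and 10.89, 12.83, 12.07 and 12.73 on the regenerated arrays. The groups did not overlap, and all 3 castrated arrays were higher still, at 13.97, 13.88 and 14.24. The difference was 4.54 ± 0.42 log2 (SE, 95% interval 3.60 to 5.47), a 23.2-fold rise (limma with Benjamini-Hochberg adjusted p = 0.0172). Without regenerated replicate 4 and intact replicate 3 it was 4.28 (adjusted p = 0.0263). As in any bulk sample, a higher level per cell and a larger share of cells with the transcript cannot be told apart.

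Cst3 (TC0200004816.mm.1) encodes cystatin C, a secreted inhibitor of cysteine proteases. Its signal was 13.61, 13.66 and 13.79 in intact, 14.73, 15.29, 15.19 and 15.34 in regenerated, and 15.05, 14.99 and 14.91 in castrated cells. The rise was 1.45 ± 0.18 log2, or 2.74-fold (limma with Benjamini-Hochberg adjusted p = 0.0477; 0.0367 without the named pair of arrays). Colca2 (TC0900002287.mm.1), which encodes a co-activator of the tuft cell factor Pou2f3, read 6.44, 6.83 and 7.24 in intact and 8.48, 9.21, 9.13 and 8.77 in regenerated cells. Its castrated arrays were 9.40, 9.49 and 9.22, and the rise was 2.06 ± 0.25 log2 (limma with Benjamini-Hochberg adjusted p = 0.0473; 0.0263 without the named pair of arrays). For Rnase1 the regenerated arrays lay between the intact and castrated levels. For Cst3 and Colca2 the regenerated and castrated ranges overlapped or nearly met, with intact below both.

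The pseudogenes Gm7665 (TC1800001024.mm.1) and Gm11223 (TC0400002845.mm.1) had the same order of levels. Gm7665 read 10, 10.09 and 10.98 in intact, 12.65, 13.02, 13.47 and 12.69 in regenerated, and 15.12, 15.09 and 16.12 in castrated cells. Gm11223 read 7.38, 7.41 and 7.11 in intact, 9.25, 9.97, 10.17 and 10.36 in regenerated, and 10.44, 10.39 and 11.60 in castrated cells. Their rises were 2.6 ± 0.35 and 2.64 ± 0.35 log2 (limma with Benjamini-Hochberg adjusted p = 0.0477 for both). Without regenerated replicate 4 and intact replicate 3 Gm7665 kept its call (adjusted p = 0.0273) and Gm11223 did not (0.0611). Probes of a pseudogene can also read a parent gene of similar sequence, so the identity of these transcripts is uncertain.

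A second set was high in regenerated arrays and near the intact level in castrated arrays. Ccdc80 (TC1600000667.mm.1), which encodes a secreted protein of the extracellular matrix, read 6.0, 5.83 and 6.42 in intact and 8.20, 8.35, 8.09 and 8.59 in regenerated cells, against 6.08, 5.92 and 6.97 in castrated cells. The rise was 2.22 ± 0.26 log2, from an intact mean of 6.09, under the highest background control value of 6.40, so no fold is given (limma with Benjamini-Hochberg adjusted p = 0.0473; 0.0316 without the named pair of arrays). All 4 regenerated arrays lay above every array of both other groups. Wfdc6b (TC0200002524.mm.1), of the whey acidic protein family of protease inhibitors, read 5.68, 6.64 and 7.02 in intact and 9.16, 9.30, 8.74 and 8.31 in regenerated cells. Its castrated arrays were 5.42, 5.75 and 5.78, and the rise was 2.43 ± 0.33 log2 (limma with Benjamini-Hochberg adjusted p = 0.0477; 0.0176 without the named pair of arrays).

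Gm5547 (TC0300001095.mm.1), annotated as a long non-coding RNA, rose by 3.81 ± 0.51 log2, a 14-fold difference. It read 6.10, 6.51 and 7.46 in intact, 9.39, 11.48, 10.18 and 10.96 in regenerated, and 6.21, 7.13 and 5.96 in castrated cells (limma with Benjamini-Hochberg adjusted p = 0.0477; 0.0400 without the named pair of arrays). H2bc12 (TC1300000191.mm.1), a replication-dependent histone H2B gene, rose by 1.30 ± 0.17, and Bank1 (TC0300002998.mm.1), a B cell scaffold protein, by 0.82 ± 0.10. H2bc12 read 4.56, 4.22 and 4.62 in intact and 5.34, 5.88, 5.88 and 5.99 in regenerated cells, and Bank1 4.15, 4.41 and 4.41 against 5.14, 5.13, 5.31 and 4.99. The adjusted p of limma with Benjamini-Hochberg adjustment was 0.0477 for both. Without the named pair of arrays the differences were 1.31 (adjusted p = 0.0442) and 0.91 (0.0315). The castrated arrays were near the intact ones for both, at 4.65 ± 0.18 and 4.21 ± 0.06 (n = 3). Both genes stayed under the highest background control value of 6.40 in every group, so their differences come from dim rows.

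Spink14 (TC1800000449.mm.1) was the single gene called lower. It read 6.11, 6.10 and 5.68 in intact, 4.78, 4.05, 4.12 and 4.01 in regenerated, and 3.86, 3.80 and 4.22 in castrated cells. The difference was -1.73 ± 0.20 log2 (limma with Benjamini-Hochberg adjusted p = 0.0473; 0.0313 without the named pair of arrays). The regenerated level thus lay close to the castrated one, and all of these values were also under 6.40. Its neighbour by name Spink5, which encodes the multidomain protease inhibitor LEKTI, was also lower on every regenerated array than on any intact array. Spink5 read 15.31, 15.97 and 15.23 in intact and 14.71, 13.66, 12.26 and 11.10 in regenerated cells. Unlike Spink14, its regenerated level lay far above the castrated one, at 5.38, 5.29 and 6.57. The regenerated minus intact difference of -2.57 ± 0.72 did not pass (limma with Benjamini-Hochberg adjusted p = 0.273). Spink1, a secreted trypsin inhibitor, was back at the top of the scale, at 19.72 ± 0.18 (n = 4) against 19.89 ± 0.01 (n = 3).

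**Figure D2:**
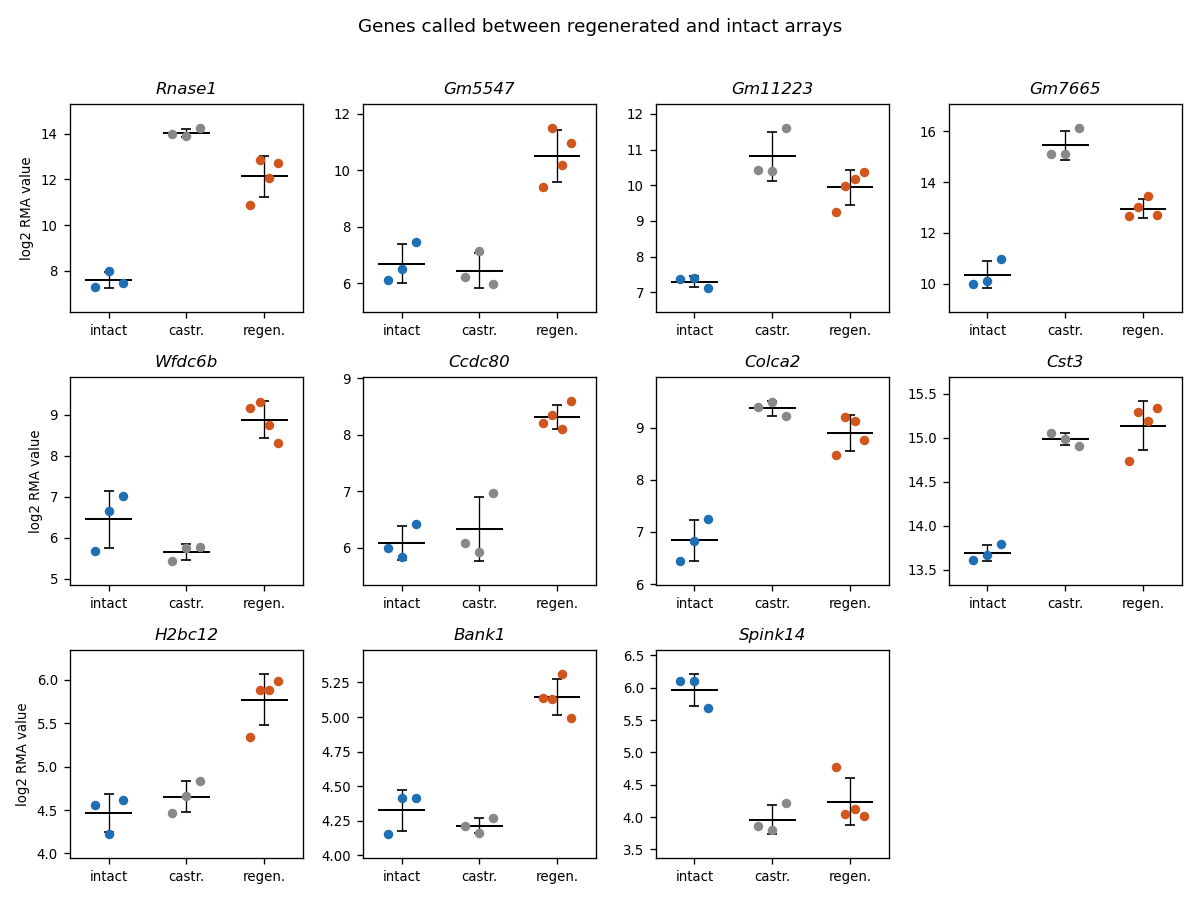
The 11 called genes, with each point an array, the line the group mean and the bar its SD, on the log2 RMA scale (intact n = 3, castrated n = 3, regenerated n = 4; vertical axes differ between panels and do not start at 0). Rnase1, the pseudogenes, Colca2 and Cst3 are also high in castrated arrays, whereas Gm5547, Wfdc6b, Ccdc80, H2bc12 and Bank1 stand out in regenerated arrays.

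The promoter windows of 4 of these genes are shown because the genes differ in their castrated levels, Rnase1, Cst3 and Colca2 being high there and Wfdc6b low. RefSeq windows on GRCm38.p6, from 250 bases before to 50 after the gene start, were matched for 7 of the 11 genes. Rnase1 lies at chr14:51146718-51147017 (minus strand), Cst3 at chr2:148875463-148875762 (minus), Colca2 at chr9:51278505-51278804 (minus) and Wfdc6b at chr2:164613450-164613749 (plus). Each is written 5′ to 3′ on the gene's strand, and capitals mark a match to a searched motif on either strand.
Rnase1: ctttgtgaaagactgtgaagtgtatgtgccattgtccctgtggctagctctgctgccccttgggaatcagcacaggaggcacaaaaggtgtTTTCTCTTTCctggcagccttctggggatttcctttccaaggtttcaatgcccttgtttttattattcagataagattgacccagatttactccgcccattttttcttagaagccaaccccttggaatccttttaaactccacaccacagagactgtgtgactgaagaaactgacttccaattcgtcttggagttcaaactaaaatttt
Cst3: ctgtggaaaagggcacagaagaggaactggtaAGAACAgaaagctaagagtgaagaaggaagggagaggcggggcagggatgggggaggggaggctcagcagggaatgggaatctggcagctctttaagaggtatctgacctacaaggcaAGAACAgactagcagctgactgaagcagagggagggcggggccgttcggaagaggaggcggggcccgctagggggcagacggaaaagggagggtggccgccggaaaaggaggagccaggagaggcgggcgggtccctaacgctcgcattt
Colca2: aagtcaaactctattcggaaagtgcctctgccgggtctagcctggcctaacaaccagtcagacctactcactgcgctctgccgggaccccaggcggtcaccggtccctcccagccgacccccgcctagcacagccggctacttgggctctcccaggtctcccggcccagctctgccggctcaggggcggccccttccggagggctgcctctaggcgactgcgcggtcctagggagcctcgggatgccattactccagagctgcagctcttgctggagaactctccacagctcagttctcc
Wfdc6b: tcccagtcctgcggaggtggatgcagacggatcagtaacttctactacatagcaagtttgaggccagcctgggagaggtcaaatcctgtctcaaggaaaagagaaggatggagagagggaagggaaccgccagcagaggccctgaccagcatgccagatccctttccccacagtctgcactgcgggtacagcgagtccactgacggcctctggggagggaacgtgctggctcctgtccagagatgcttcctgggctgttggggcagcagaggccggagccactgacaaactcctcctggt
The motifs were AGAACA, a half-site of steroid receptors, TGANTCA for AP-1 and GAAANN directly followed by GAAA for interferon regulatory factors. They occur in 19%, 7.81% and 3.44% of the 32851 windows of the table. Cst3 holds 2 AGAACA matches and Rnase1 1 match to the interferon regulatory motif, written as its reverse complement. Colca2 and Wfdc6b hold none of the 3 motifs in these windows, and a match is only a description of the letters.

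Without regenerated replicate 4 and intact replicate 3, 128 genes were called (0.425% of genes tested), 78 higher (0.259%) and 50 lower (0.166%). They include 10 of the 11 genes above, Gm11223 being the exception. Among the 78 genes, regenerated replicate 4 lay on the intact side of the midpoint between the groups in 26 and intact replicate 3 on the regenerated side in 38. Among the 50 genes called lower, intact replicate 3 lay on the regenerated side in 46. Neither omitted array crossed the midpoint for 27 of the higher and 4 of the lower genes. Most of the lower genes were thus high on intact replicates 1 and 2 and not on replicate 3. Over all 7 arrays 12 of the 50 did not overlap, against 41 of the 78. The pair was set with earlier results of these data known, so calls gained without it add no independent support.

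The genes named next were singled out after their values were seen. Tmem176b and Tmem176a, neighbouring membrane protein genes, were high on every regenerated array. Tmem176b read 10.68, 10.49 and 11.90 in intact and 12.76, 13.90, 13.34 and 13.47 in regenerated cells, a difference of 2.35 ± 0.36 (limma with Benjamini-Hochberg adjusted p = 0.085; 0.0263 without the pair of arrays). Tmem176a differed by 2.20 ± 0.34 (0.085 and 0.0313). Crip1, which encodes a small LIM-domain protein, read 6.57, 6.38 and 7.31 against 9.09, 9.98, 9.30 and 11.56, and Mal, a membrane-raft protein of epithelia, read 7.61, 7.98 and 9.11 against 9.79, 11.63, 10.81 and 11. Their differences of 3.23 ± 0.56 and 2.58 ± 0.45 had limma adjusted p-values of 0.123 for both with all arrays, and 0.0362 and 0.0469 without the pair. In these 4 genes both omitted arrays stayed on their own group's side.

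Other genes of the 78 depended on the omitted arrays. Emp2, an epithelial membrane protein, read 7.67, 7.97 and 11.77 in intact and 11.84, 11.17, 11.09 and 10.06 in regenerated cells. Intact replicate 3 lay inside the regenerated range, and the difference went from 1.90 (limma with Benjamini-Hochberg adjusted p = 0.529) to 3.55 (0.0411) without the pair. Ifitm2, of the interferon-induced transmembrane family, followed the same pattern, with intact values of 8.95, 8.86 and 11.59, and went from 1.53 (limma with Benjamini-Hochberg adjusted p = 0.492) to 2.83 (0.0313). Habp2, a secreted serine protease, read 4.75, 5.04 and 5.40 against 7.46, 8.67, 7.84 and 5.74. There regenerated replicate 4 was the array nearest the intact values, and the difference went from 2.36 (limma with Benjamini-Hochberg adjusted p = 0.238) to 3.10 (0.0176) without the pair.

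Of the 50 genes called lower without the pair, Svs4, a seminal vesicle secretory protein, had the largest difference. It read 10.58, 10.04 and 5.10 in intact and 6.47, 6.76, 5.32 and 8.91 in regenerated cells, so that the difference was -1.71 with all arrays (limma with Benjamini-Hochberg adjusted p = 0.726) and -4.13 (0.0176) without the pair. Svs2 and Svs5, of the same tissue, ranged just as widely, Svs5 from 9.95 to 14.90 in intact and from 5.09 to 15.59 in regenerated cells. Over the 12 seminal vesicle markers measured the median was 3.76 to 3.89 on intact and 3.78 to 4.18 on regenerated arrays, 0 were without overlap, and 0 had an unadjusted limma p under 0.05. Their part in other differences was not tested. Exph5 and Sytl5, effectors of Rab27-dependent vesicle traffic, were low on every regenerated array. Exph5 read 8.68, 8.67 and 7.47 against 6.94, 6.70, 6.41 and 6.25 (limma with Benjamini-Hochberg adjusted p = 0.153; 0.0313 without the pair), and Sytl5 10.88, 10.25 and 8.32 against 7.91, 7.27, 8.18 and 6.92 (0.268 and 0.0430). Prkaa2, the alpha-2 subunit of AMP-activated kinase, read 12.29, 12.01 and 10.53 against 9.99, 9.78, 10.06 and 9.04 (0.255 and 0.0430). In Exph5, Sytl5 and Prkaa2 the omitted intact replicate 3 lay on the regenerated side of the midpoint between the groups.

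**Figure D3:**
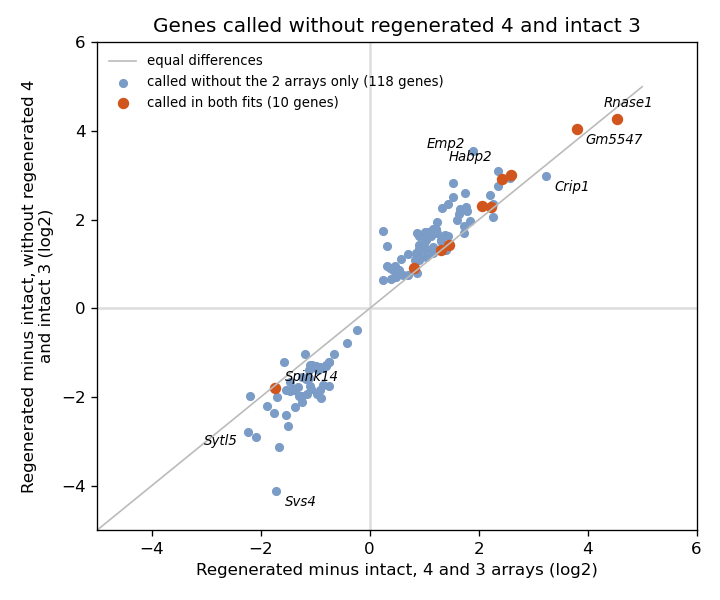
Difference between regenerated and intact means (log2) of the 128 genes called without regenerated replicate 4 and intact replicate 3, with all 7 arrays on the horizontal and without the pair on the vertical axis. The 10 genes called in both fits (orange) lie near the line of equal differences, and Svs4 and Emp2 lie far from it.

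Beyond the calls, 2910 genes (9.65%) had regenerated and intact arrays that did not overlap, 1935 higher (6.42%) and 975 lower (3.23%). An unadjusted limma p under 0.05 was found for 3019 genes (10%), 1993 higher (6.61%) and 1026 lower (3.4%). This excess of higher genes depends on the scaling. With each array centred on its median 1334 were higher and 1903 lower among the non-overlapping genes, and after repeated quantile normalisation 1531 and 1786. Of 874 measured genes in 36 lists of pathways and cell types, none was called by limma in the fit of all arrays, and 119 were higher and 35 lower at an unadjusted p under 0.05. The lists below are described by how many members had non-overlapping arrays, to be read against 6.42% and 3.23%.

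Several secretory products of the prostate read above the intact level on every regenerated array. Of 35 measured, 11 were higher and 1 lower without overlap, 11 and 1 had an unadjusted limma p under 0.05, and the median difference was 0.13, against 0.01 over all genes. Pbsn, the gene of the androgen-regulated lipocalin probasin, read 17.85, 18.28 and 18.52 in intact and 19.28, 19.25, 19.10 and 19.39 in regenerated cells, close to the ceiling of the scale. Its castrated mean was 17.71 ± 0.26, and its difference of 1.04 ± 0.17 did not pass with all arrays (limma with Benjamini-Hochberg adjusted p = 0.110). It passed only without the pair of arrays (0.0486), with array weights (0.0320) and among genes above the highest background (0.0430). Msmb, which encodes beta-microseminoprotein, read 17.11, 17.41 and 17.98 against 19.40, 19.29, 19.37 and 18.59, and Tgm4, a semen-clotting transglutaminase, 16.16, 16.25 and 15.90 against 16.78, 18.63, 17.12 and 19.40. Their castrated means were 8.25 ± 1.95 and 7.42 ± 1.74 (n = 3), and neither difference passed (1.66 ± 0.70 and 1.88 ± 0.79, limma with Benjamini-Hochberg adjusted p = 0.463 and 0.459). For both genes the castrated arrays, which share in the estimate of spread, varied most. For Msmb the SD was only 0.44 in intact and 0.39 in regenerated arrays.

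Mmp7, or matrilysin, a protease that processes secreted epithelial proteins, had a large difference in this list. It read 14.42, 14.09 and 13.99 in intact and 16.28, 17.81, 17.76 and 16.40 in regenerated cells, and 14.60, 15.43 and 18.10 in castrated cells. The difference of 2.90 ± 0.72 (95% interval 1.31 to 4.48) did not pass (limma with Benjamini-Hochberg adjusted p = 0.266). The castrated arrays, which share in the estimate of spread, ranged widely for this gene.

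Androgen response genes were mixed, with 4 of 38 higher and 3 lower without overlap and a median difference of 0.03. Hpgd, the enzyme that inactivates prostaglandins, read 9.37, 9.48 and 9.25 in intact and 11.31, 11.91, 10.98 and 10.69 in regenerated cells. It was lower than intact after castration (8.63 ± 0.12), and its difference of 1.85 ± 0.28 did not pass with all arrays (limma with Benjamini-Hochberg adjusted p = 0.0782). It passed only without the pair (0.0400), without regenerated replicate 4 (0.0261), with array weights (0.0138) and among genes above the highest background (0.0396). Slc26a4, which encodes the anion exchanger pendrin, read 11.02, 11.01 and 12.24 against 10.88, 9.29, 10.15 and 7.14 (difference -2.06 ± 0.73, limma adjusted p = 0.367, and -0.91 with 0.419 without the pair). Fkbp5, a co-chaperone of steroid receptors that responds to androgen, read 8.50, 7.77 and 8.80 against 8.37, 8.15, 8.24 and 6.86. Only regenerated replicate 4 was low, and without the pair of arrays the difference turned from -0.45 to 0.12.

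The endoplasmic reticulum of secretory cells folds and checks these products. Of 38 genes of folding and the secretory route, 7 were higher and 0 lower without overlap, 7 and 0 had an unadjusted limma p under 0.05, and the median difference was 0.10. Derl3, which takes misfolded proteins out of the reticulum, read 9.13, 8.03 and 9.84 in intact, 10.61, 11.30, 11.74 and 10.86 in regenerated, and 7.94, 6.49 and 5.59 in castrated cells. Creld2, an endoplasmic reticulum chaperone, read 14.34, 14.28 and 15.34 against 15.80, 16.98, 16.71 and 15.14, with regenerated replicate 4 inside the intact range. Their differences of 2.13 ± 0.56 and 1.51 ± 0.54 did not pass (limma with Benjamini-Hochberg adjusted p = 0.269 and 0.369).

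Genes of proximal luminal progenitors had the highest median of any list, 0.54, and 0.53 without the pair of arrays. Of 31 measured, 8 were higher and 3 lower without overlap, and 12 and 1 had an unadjusted limma p under 0.05. Prom1, which encodes the surface protein CD133, read 6.34, 6.36 and 6.99 in intact and 7.80, 9.34, 7.55 and 10.55 in regenerated cells, a difference of 2.25 ± 0.62 (limma with Benjamini-Hochberg adjusted p = 0.269). Psca, prostate stem cell antigen, read 9.86, 9.96 and 8.89 against 9.74, 11.40, 10.66 and 10.88, and the keratin Krt4 8.80, 8.51 and 9.19 against 9.62, 11.21, 10.54 and 9.09. Both ranges overlapped. Ltf, the iron-binding lactoferrin, was the most variable, from 5.24 to 6.77 in intact and 6.23 to 10.34 in regenerated cells, while a single castrated array reached 14.71.

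Several genes abundant in regressed cells had regenerated levels between the intact and the castrated ones. Upk1b, a uroplakin of the urothelium, read 9.68, 10.07 and 10.37 in intact, 11.63, 14.13, 13.12 and 14.33 in regenerated, and 15.80, 15.44 and 15.54 in castrated cells. The difference was 3.26 ± 0.55 log2, or 9.61-fold, and did not pass (limma with Benjamini-Hochberg adjusted p = 0.106; 0.0777 without the pair). It passed only without regenerated replicate 1 (0.00526), with array weights (0.0291) and among genes above the highest background (0.0442). Upk2 was 0.68 higher (95% interval -0.19 to 1.55), and of 9 urothelial markers 3 were higher without overlap and 5 were under background in all groups. Gabrp, the pi subunit of the GABA-A receptor, read 7.36, 6.62 and 6.72 in intact, 8.44, 11.03, 9.91 and 9.56 in regenerated, and 13.48, 13.19 and 13.96 in castrated cells (difference 2.83 ± 0.50, limma adjusted p = 0.129). In both genes regenerated replicate 1 was the array nearest the intact ones, and Gabrp passed only without it (0.0166) and with array weights (0.0389).

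The lipoxygenases oxidise polyunsaturated fatty acids such as arachidonic acid. Alox12 read 6.20, 6.81 and 7.22 in intact, 8.14, 11.34, 9.85 and 10.81 in regenerated, and 14.54, 14.44 and 13.96 in castrated cells. Alox15 read 6.08, 5.43 and 5.95 in intact and 7.72, 10.85, 9.51 and 9.19 in regenerated cells, which was above its castrated mean of 7.11 ± 0.51. Their differences were 3.30 ± 0.63 and 3.50 ± 0.58 log2 (limma with Benjamini-Hochberg adjusted p = 0.164 and 0.106), the first 9.82-fold and the second from intact arrays that were all under the background value of 6.40. Both passed without regenerated replicate 1 (0.00952 each), and Alox12 passed in no other alternative. Alox15 otherwise passed only with array weights (0.0295) and among genes above the highest background (0.0406). It entered that filter only through its regenerated and castrated means, so the filter adds no support for its difference. Of the 27 genes of this list 6 were higher and none lower without overlap, with 6 and 1 at an unadjusted p under 0.05. The lipase relative Pnliprp1, noted after its values were seen, had a difference of 3.13 ± 0.78, with intact arrays of 6.79, 7.15 and 6.77 and regenerated arrays of 8.31, 11.63, 9.11 and 11.08.

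**Figure D4:**
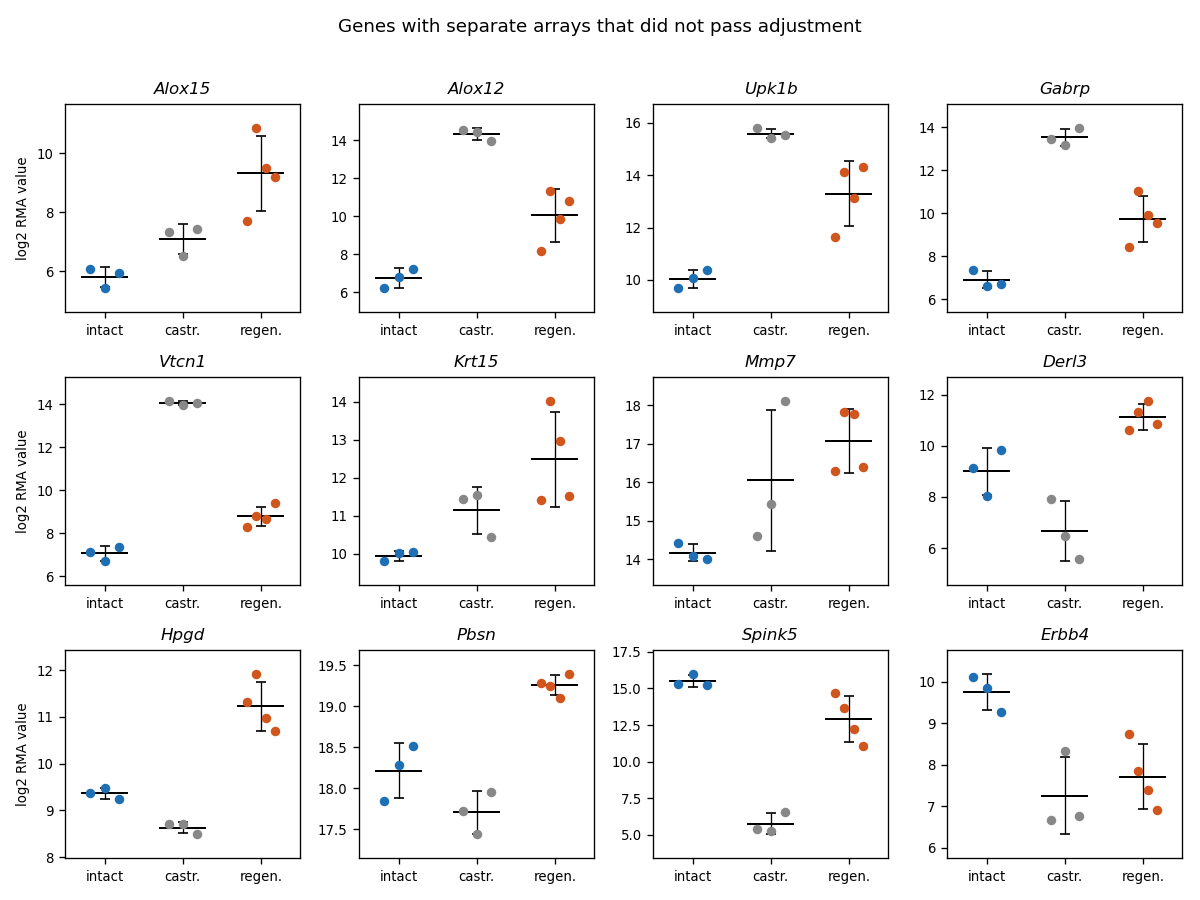
Log2 RMA values of 12 genes whose regenerated and intact arrays do not overlap but whose difference did not pass adjustment with all arrays, drawn with array points, group mean and SD (vertical axes differ and do not start at 0). Alox12, Upk1b, Gabrp and Vtcn1 lie between intact and castrated levels, Hpgd and Derl3 lie above both, and Spink5 and Erbb4 lie below intact.

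Lists of immune genes had median differences of 0.07 for chemokines and myeloid growth factors, 0.15 for interferon response, 0.135 for MHC class I and 0.10 for class II. In that order, the 95% interval lay inside ± 1 log2 for 19 of 31, 22 of 43, 16 of 18 and 9 of 11 genes. For the other members the interval reached beyond ± 1 log2, so their closeness to intact was not shown. Vtcn1, a B7-family ligand that restrains T cells, read 7.12, 6.70 and 7.38 in intact, 8.31, 8.80, 8.67 and 9.39 in regenerated, and 14.14, 13.97 and 14.05 in castrated cells. Its difference of 1.73 ± 0.27 was small beside the castrated level and did not pass with all arrays (limma with Benjamini-Hochberg adjusted p = 0.0885). It passed only without the pair (0.0363), without regenerated replicate 1 (0.0364), with array weights (0.0199) and among genes above the highest background (0.0396). Cxcl15, an epithelial chemokine, read 7.15, 6.72 and 5.61 against 7.42, 9.37, 9.42 and 7.86, and Cxcl17, a mucosal chemokine, 6.27, 6.28 and 5.88 against 7.22, 9.22, 8.16 and 6.97. Both ranges were separate without a passing test (differences 2.02 ± 0.72 and 1.75 ± 0.57, limma with Benjamini-Hochberg adjusted p = 0.365 and 0.322), and of 31 chemokine and growth factor genes 3 were higher and none lower without overlap.

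B2m, the invariant chain of MHC class I, read 18.94, 18.77 and 18.63 in intact and 19.33, 19.34, 19.43 and 19.22 in regenerated cells, near the ceiling. Psmb10, an immunoproteasome subunit, read 6.76, 6.97 and 7.96 against 8.75, 8.30, 8.20 and 7.82, and passed only without the pair of arrays (limma with Benjamini-Hochberg adjusted p = 0.298, and 0.0469 without them). Of 18 class I genes 2 were higher and none lower without overlap. Of 43 interferon response genes 3 were higher and none lower, 7 and 0 had an unadjusted limma p under 0.05, and the median was 0.15. Oas2, which makes the activator of ribonuclease L, read 4.13, 4.09 and 4.41 against 5.13, 4.94, 5.84 and 5.03, all under 6.40. The 11 MHC class II genes had a median of 0.10, no member without overlap and none at an unadjusted limma p under 0.05.

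Stress and clock genes differed in both directions, none with a passing test in the fit of all arrays. The heat shock chaperones Hspa1a and Hsph1 were high on every regenerated array, Hspa1a at 11.81, 9.92, 9.89 and 11.50 against 7.84, 7.88 and 9.38, and Hsph1 at 12.72, 10.25, 11.53 and 10.49 against 8.25, 8.16 and 9.61. Their differences of 2.41 ± 0.62 and 2.57 ± 0.61 did not pass (limma with Benjamini-Hochberg adjusted p = 0.269 and 0.255). The immediate early and heat shock list as a whole had a median of -0.29, with 3 of 25 higher and 4 lower without overlap and 3 and 6 at an unadjusted p under 0.05. Circadian clock genes had the lowest median, -0.45 over 17 genes, 1 higher and 2 lower without overlap. Cry2, a clock repressor, read 9.60, 9.27 and 8.36 against 8.31, 8.07, 7.36 and 7.45, and Nfil3, a clock-controlled transcription factor, 6.79, 6.92 and 6.30 against 6.20, 5.60, 5.34 and 4.97 (limma with Benjamini-Hochberg adjusted p = 0.273 and 0.255). Nfil3 passed without regenerated replicate 1 (0.0412). The sources used here do not give the hour of collection.

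Proliferation genes were low in both groups. Of 29 cell cycle genes 24 were under background in every group, and the median difference was 0.09. Mki67 read 3.95, 4.09 and 3.58 in intact and 3.71, 3.65, 3.77 and 6.37 in regenerated cells, so regenerated replicate 4 alone stood out. Cdkn1a, which encodes the cyclin-dependent kinase inhibitor p21, read 8.81, 9.11 and 8.05 against 10.26, 10.49, 10.21 and 9.56 (difference 1.47 ± 0.38, limma with Benjamini-Hochberg adjusted p = 0.269). Among 26 apoptosis regulators 3 were higher and 1 lower without overlap. Casp8, the initiator caspase of death receptors, read 7.37, 7.58 and 8.31 against 8.79, 8.81, 8.57 and 8.24 and passed only without the pair (limma adjusted p = 0.283, and 0.0442 without them). The survival factor Bcl2 read 6.18, 6.27 and 6.32 against 6.60, 7.72, 7.20 and 7.70 (0.269).

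Growth factor and lineage genes gave large differences of either sign within lists centred near 0. Igfbp5, a binding protein of insulin-like growth factors, read 5.45, 4.89 and 5.50 in intact and 5.05, 7.85, 7.49 and 9.43 in regenerated cells, with regenerated replicate 1 inside the intact range. Its difference of 2.18 ± 0.76 did not pass (limma with Benjamini-Hochberg adjusted p = 0.355), but did without that array (2.98, 0.0364). Erbb4, a receptor for neuregulins, read 10.12, 9.85 and 9.27 in intact, 8.73, 7.84, 7.38 and 6.90 in regenerated, and 6.67, 8.33 and 6.76 in castrated cells. Its difference of -2.03 ± 0.49 did not pass (limma with Benjamini-Hochberg adjusted p = 0.261). Gata2, a zinc finger transcription factor, read 5.85, 5.92 and 6.35 in intact and 6.82, 8.21, 7.67 and 8.59 in regenerated cells (difference 1.78 ± 0.35, 0.168, and 0.0139 without regenerated replicate 1). Prom1, described above, is the other large difference of the lineage list. Of 43 growth factor genes 4 were higher and 3 lower without overlap, of 19 lineage genes 5 and 2, and of 44 Wnt and Notch genes 4 and 2. Fzd6, a Wnt receptor, differed by -1.22 ± 0.33, and Nkd1, an inhibitor of Wnt signalling, by 1.18 ± 0.57, the latter with 8.49 on regenerated replicate 4 and 5.64 to 6.83 on the others.

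Metabolic lists had medians close to 0. The 28 oxidative phosphorylation genes had a median of -0.07, a range of -0.34 to 0.30, and 95% intervals inside ± 1 log2 for all 28. Sterol and fatty acid synthesis had a median of -0.06 over 21 genes, 0 in either direction without overlap or at an unadjusted limma p under 0.05. Scd1, a fatty acid desaturase, read 13.96, 13.25 and 13.78 in intact and 13.93, 13.24, 13.61 and 10.87 in regenerated cells. Apart from regenerated replicate 4 the groups coincided, and without the pair of arrays the difference was -0.01. Slc30a2, a zinc exporter, read 5.40, 5.55 and 5.81 against 6.43, 8.56, 6.93 and 8.56 (difference 2.04 ± 0.47, limma with Benjamini-Hochberg adjusted p = 0.255), and Gsta3, a glutathione transferase, 5.82, 5.98 and 6.35 against 6.92, 8.20, 7.87 and 7.77 (1.64 ± 0.30, 0.151). Both passed without regenerated replicate 1 (0.0482 and 0.0232), and Gsta3 also with array weights (0.0414).

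Other leading list members passed neither with all arrays nor without the pair. Serpinb5, or maspin, an epithelial serpin, read 5.74, 5.46 and 6.15 in intact and 7.12, 7.76, 7.48 and 7.22 in regenerated cells (difference 1.61 ± 0.28, limma with Benjamini-Hochberg adjusted p = 0.123, and 0.0682 without the pair). It passed only with array weights (0.0215). In the integrated stress response the amino acid transporter Slc7a5 differed by 1.57 ± 0.58 and the transcription factor Ddit3 by 1.32 ± 0.59, Ddit3 with overlapping arrays. The steroid-metabolising enzymes Hsd17b11 and Ugt2b34 differed by 1.08 ± 0.34 and 1.28 ± 0.32, the chromatin regulators Satb1 and Hdac9 by 1.10 ± 0.42 and -1.36 ± 0.69, and the cyclin gene Ccnd2 by 1.06 ± 0.81. Ugt2b34 passed only without regenerated replicate 1 (limma with Benjamini-Hochberg adjusted p = 0.0412). Hdac9 was -0.30 and Ccnd2 2.28 without the pair. Fut8, a fucosyltransferase, differed by 1.35 ± 0.50, with 8.33 on regenerated replicate 4 and 5.75 to 6.38 on the others. Arg2, the mitochondrial arginase, and Gclc, of glutathione synthesis, differed by -1.15 ± 0.45 and -1.05 ± 0.38, both with overlapping arrays.

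Markers of other cells were compared over whole lists. Of 17 basal markers 14 were under background, and the list median ran from 4.54 to 4.71 across intact and 4.59 to 4.70 across regenerated arrays. Krt5 and Krt14 stayed near 5 in both groups, whereas Krt15 read 9.80, 10.01 and 10.04 in intact and 11.42, 14.02, 12.98 and 11.53 in regenerated cells (difference 2.53 ± 0.58, limma with Benjamini-Hochberg adjusted p = 0.255). Myeloid list medians were 3.86 to 4.14 in intact and 3.91 to 4.56 in regenerated arrays, with 20 of 23 markers under background. Cd14, an endotoxin co-receptor, read 5.33, 5.53 and 5.43 against 5.77, 6.93, 6.23 and 6.57. Lymphocyte, stromal, endothelial and neuroendocrine lists had 17 of 18, 18 of 19, 12 of 12 and 9 of 9 markers under background and medians within 0.07 of 0. The exceptions above background were Cd3e, at 5.40 to 8.18 in intact and 5.73 to 7.38 in regenerated cells, and Dcn, the proteoglycan decorin, at 11.40 to 12.77 and 10.94 to 11.89. The part of these cells in the differences above was not tested.

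**Figure D5:**
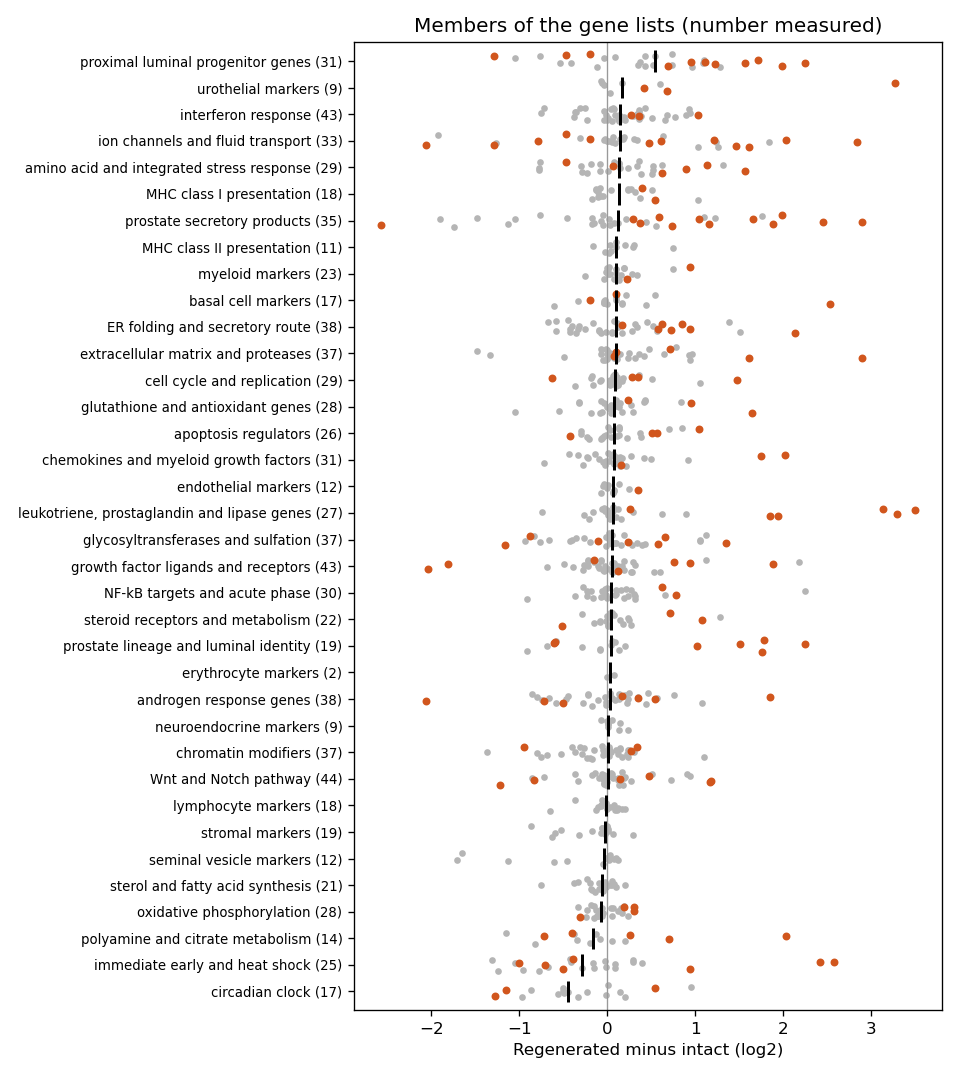
Difference between regenerated and intact means (log2) for every measured member of the 36 lists, with the number measured in brackets, orange points for members whose arrays do not overlap and a black bar at the list median. Proximal luminal progenitor genes have the highest median (0.54) and circadian clock genes the lowest (-0.45).

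The number of arrays limits these statements. The median SE of a difference was 0.26 log2 among the 10004 genes above background, and the median 95% interval reached 0.57 to either side. For 6483 of these genes (64.8%) the interval lay inside ± 1 log2, so a doubling or halving was not within their error. For the others the interval reached beyond ± 1 log2 on at least one side. In all, 958 genes differed by at least 1 log2 between the means, 707 higher and 251 lower, and 10 of them were called.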

How the data were processed

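Total RNA of sorted luminal cells (RNA integrity number of at least 9, per the labels' protocols) was hybridised to Affymetrix ClariomD (MTA-1.0) arrays, 1 per sample, 10 in all. The authors deposited log2 values, and the submitters' processing notes name RMA and Affymetrix Expression Console. The sources used here give no version and no genome build. RMA brings the probe intensities of the arrays to 1 distribution before summarising them, so a shift of all transcripts together is not seen. The summarised values still differed somewhat between arrays, with medians of 4.12 to 4.22. Of 65956 non-control rows, 30604 carried 1 gene symbol, 2146 several (left out) and 33206 none. Symbols came from a platform annotation that may be dated, 827 of them replaced by current RefSeq ones. Where a gene had more than 1 row (355 genes), its brightest row over all arrays was used. Background means the 23 control rows of the table.

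limma 3.58.1 in R 4.3.3 (lmFit, eBayes with a mean-variance trend) was fitted to all 10 arrays with 3 group means and 7 residual degrees of freedom, and p-values, two-sided, were adjusted over the 30142 genes. A gene is called at an adjusted p under 0.05. The castrated arrays entered the fit only through the shared spread. They also counted in the choice of row per gene, the background filters and the repeated quantile normalisation. The procedure was tested on simulated data with independent noise and 1 spread per gene shared by all groups. Those data held no outlying array, so they do not show how calls behave when arrays stand apart. The comparison, the 36 lists and the extra genes were chosen with earlier results of these data known. Named genes are drawn from all called genes, the 2 largest differences per list without called members, and a fixed set of sort and prostate markers. Some of these, mostly leading list members that differed by less than 1 log2, are not described. Others were singled out after their values were seen and are the pseudogenes, Gm5547, Tmem176a, Tmem176b, Crip1, Mal, Emp2, Ifitm2, Habp2, Exph5, Sytl5, Prkaa2 and Pnliprp1, with those of the closing section. Settings varied were the arrays used, a replicate block, the trend, weights, robust fitting, filters, scaling and the row per gene.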

Additional observations from a re-analysis of the deposited data

Results flagged for a closer look

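Of 127 genes followed, 10 had an array that stood far from the other 3 of the regenerated group, measured as its gap to the nearest array over the range of the group (Dixon's rule for 4 values). Chance alone gives about 1 in 20 groups such an array, and the genes share the same 4 arrays. Of the 10, 7 concern regenerated replicate 4. On that array the proliferation gene Mki67 read 6.37, against 3.65 to 3.77 on the others. Mgat5, a glycan-branching enzyme, read 8.34 against 11.06 to 11.50, and the androgen-responsive co-chaperone Fkbp5 read 6.86 against 8.15 to 8.37. The secretory gene Msmb read 18.59 against 19.29 to 19.40. The Wnt receptor Fzd6 read 7.18 against 7.73 to 7.77. Atp5b, a subunit of ATP synthase, read 12.93 against 13.48 to 13.56. Plvap, an endothelial marker, read 3.77 against 3.04 to 3.14. On regenerated replicate 2 the interferon-induced GTPase Igtp read 5.24 against 6.04 to 6.18, and the erythrocyte anion exchanger Slc4a1 read 3.59 against 3.71 to 3.72. On regenerated replicate 1 the called gene Spink14 read 4.78 against 4.01 to 4.12, still under the lowest intact array of 5.68.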

How the results depend on the processing

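The count of 11 called genes (10 higher, 1 lower) was 11, 12, 11 and 10 with robust fitting, a filter at 1 unit over the background median, the mean of rows per gene and a least difference of 1 log2. It moved to 128 (78 and 50) without regenerated 4 and intact 3, to 70 (65 and 5) with array weights, and to 22 (21 higher) with a filter above the highest background value, which leaves 10004 genes to adjust over. It dropped to 3 (2 higher) with arrays centred on their median, 1 (1 and 0) after repeated quantile normalisation, 2 (2 and 0) without a mean-variance trend, and 0 (0 and 0) both without the castrated arrays and over every non-control row, where 2859 genes and 5207 rows had an unadjusted limma p under 0.05. Leaving out 1 array at a time gave 0 to 78 called genes, 0 to 71 higher and 0 to 9 lower. The cause of these shifts was not tested. The titles number replicates alike, but same-numbered intact and regenerated arrays did not deviate together (correlations -0.109, -0.025 and 0.133), and no array of replicate 4 exists for a pair. With the replicate block 4 genes were called, 3 of them higher. Of the called genes, Rnase1 passed in 14 of 21 alternatives and the others in 6 to 11, with adjusted p-values up to 0.316 and no change of sign. The 128 genes became 199 without the castrated arrays, 226 without a trend, 405 above the highest background and 119 with centring, alternatives chosen after seeing the data. The filter above the highest background took a gene in by its highest group mean. For genes high only in regenerated cells its counts of 22 and 405 therefore add no support.

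Of the 127 genes followed, 11 changed sign somewhere, none of them called. Leaving out 1 array at a time, Adgre1 ran from -0.04 to 0.09, Alas2 from -0.0017 to 0.19, Emcn from -0.03 to 0.39, Epcam from -0.01 to 0.12, Krt5 from -0.09 to 0.02, Mki67 from -0.16 to 0.75, Ptprc from -0.07 to 0.02, Slc4a1 from -0.01 to 0.03, Svs2 from -1.80 to 0.79 and Svs5 from -3.24 to 0.26. Without regenerated 4 and intact 3, Emcn was -0.03, Fkbp5 0.12, Mki67 -0.31 and Ptprc 0.02. With the replicate block Emcn was -0.03 and Mki67 -0.16. Centring gave -0.05 for Adgre1 and -0.00077 for Epcam, and quantile normalisation -0.01 and -0.19. Precision is limited by 3 and 4 arrays, by the ceiling for the brightest secretory genes, and by background for the 20138 genes whose group means were all at or under 6.40.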

Other observations

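Some gene families not covered above had several members on the same side, and they are given as values chosen after seeing the data. Over all genes tested, 6.42% were higher and 3.23% lower without overlap, and 0.259% were called higher without regenerated 4 and intact 3. Alpha-defensins (Defa) are antimicrobial peptides of the gut. Of 22 measured genes with a Defa symbol, pseudogenes included, 12 were higher in regenerated arrays without overlap. Without regenerated 4 and intact 3, 8 passed, among them the pseudogenes Defa-ps1 and Defa-ps6, and none passed in the fit of all arrays. All 22 were under the highest background value. Their family median was 4.14, 4.15 and 4.29 on the intact arrays and 4.90, 5.18, 5.28 and 4.25 on the regenerated arrays, so regenerated replicate 4 lay within the intact range. Defa22 read 3.65, 3.53 and 3.49 against 4.67, 5.24, 5.43 and 4.09 (limma with Benjamini-Hochberg adjusted p = 0.168, and 0.0315 without the pair of arrays). These genes are near-identical copies, and probes cannot be assigned to a single member with certainty. The epithelial beta-defensin Defb1 was brighter, at 8.45, 8.80 and 9.08 against 10.39, 10.91, 11.16 and 9.79 (limma with Benjamini-Hochberg adjusted p = 0.134, and 0.0304 without the pair of arrays).

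Tissue kallikrein genes (Klk1 and Klk1b), which encode secreted serine proteases and are also close copies, had 9 of 12 members higher without overlap and none lower, with 11 under background and a median difference of 0.44. Klk1b24 was the brightest change, at 5.24, 5.39 and 5.87 in intact and 7.42, 7.54, 6.96 and 6.54 in regenerated cells (1.61 ± 0.24, limma with Benjamini-Hochberg adjusted p = 0.0782, and 0.0176 without the pair). Of 17 Wfdc genes 5 were higher without overlap, Wfdc6b being the called one, and its neighbour by name Wfdc6a read 4.90, 5.0 and 5.38 against 6.39, 5.80, 6.07 and 5.54 (limma with Benjamini-Hochberg adjusted p = 0.255, and 0.0442 without the pair). Of 13 secretoglobin 2b genes 4 were lower without overlap and none higher, and the differences ran from -2.08 to 1.34 with a median of -1.20. Their family median was 7.35, 8.94 and 6.71 on the intact arrays and 7.79, 6.45, 7.68 and 5.61 on the regenerated arrays, so the groups overlapped, and no member passed in either fit. Scgb2b10 read 11.01, 9.90 and 9.73 against 8.77, 8.10, 8.84 and 6.84. Of 11 histone H2B genes 2 were higher without overlap, H2bc12 among them, and the median difference was 0.36. None of these families' other members was called in the fit of all arrays.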
